A study of Homo sapiens with 12 samples.

Results

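The genes of the NF-kB pathway and of the inflammatory cytokines that it drives were examined in Cal27, an established cell line of human tongue squamous carcinoma. The members were 40 genes taken by symbol from the deposited count table of 25382 symbols, and no measured value enters the rule that takes them. The list itself was chosen with earlier results of these data known, so shares of members set beside those of all genes are descriptions only. The members comprised 5 NF-kB subunits, 7 genes of the IkB family or other inhibitors, 8 adaptors and survival genes, 5 chemokines, 8 cytokines and 7 surface or other response genes. RNA was sequenced from wild-type (WT) cells in 4 conditions with 3 libraries each, and the study asks what cells keep of an earlier culture, called mechanical memory. Conditioning took 5 days and the culture after replating 1 day, both on polyacrylamide gel coated with collagen, and every condition was replated on the soft gel of 0.48 kPa. Soft-to-soft cells were conditioned on that soft gel without treatment, and stiff-to-soft cells on a gel of 20 kPa. LPA-to-soft cells spent the conditioning phase on soft gel with lysophosphatidic acid (LPA), a signalling lipid with its own family of G protein-coupled receptors. LPA-to-FAKi cells were conditioned likewise and after replating received an inhibitor (FAKi) of focal adhesion kinase, or FAK, a kinase of integrin adhesions. The series puts stiff-to-soft and LPA-to-soft in a class that learned, and soft-to-soft and LPA-to-FAKi in a class that did not. LPA-to-FAKi carries both agents, and no group received the inhibitor without LPA. All libraries come from 1 cell line, and the labels do not say whether replicates are separate cultures, and a p-value therefore reflects just the scatter of these 12 libraries, possibly a technical one.

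NF-kB is a family of dimeric transcription factors that inhibitors of the IkB family hold in the cytoplasm. Signals from receptors for tumour necrosis factor, interleukin 1 and microbial products activate the IkB kinase, IkB proteins are degraded, and the dimers enter the nucleus. Many targets are inhibitors of the same pathway (NFKBIA, TNFAIP3), and others are chemokines and cytokines that squamous carcinoma cells secrete and that attract neutrophils and lymphocytes.

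All 40 members passed the low-count filter, as did 15437 genes in all. Total counts ran from 62953957 to 122311183 per library, and mitochondrial genes took 4.31% to 8.22% of them. Of counts from 1 to 19, even values made up 96.8% to 97.8% in 10 libraries but 42.9% in soft-to-soft 1 and 42.2% in soft-to-soft 2, so each edgeR call of a member versus soft-to-soft is also given without these libraries, in a fit that leaves 1 soft-to-soft library, assumed to vary like the other groups. Of 10 markers of squamous epithelium 10 passed the filter, with summed levels of 10771 to 14637 in soft-to-soft, 6462 to 11376 in stiff-to-soft, 7520 to 13160 in LPA-to-soft and 7155 to 12408 in LPA-to-FAKi, in CPM (counts scaled to the size of the library). Leukocytes secrete many of the same cytokines, and 4 of 12 leukocyte markers passed, with sums of 5.66 to 9.71 CPM in soft-to-soft, 6.41 to 8.74 in stiff-to-soft, 5.53 to 10.9 in LPA-to-soft and 5.59 to 8.44 in LPA-to-FAKi. Of the leukocyte markers, CD14 reached the highest level in any library (5.43 CPM), followed by ITGAM (3.998 CPM). CD3E, CD2, MS4A1 and TYROBP were at 0 in every library. Fibroblast markers (5 of 10 past the filter, POSTN at 0) summed to 19.6 to 40.7 CPM, and endothelial markers (2 of 8) to 5.74 to 37.8 CPM, mostly CDH5. In bulk RNA, fewer cells of a kind and less RNA per cell cannot be told apart.

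The promoters of the members were read for the NF-kB site, the short sequence that NF-kB dimers bind. RefSeq promoters on GRCh38.p14, 250 bases before to 50 after a start, were found for 36 of 40 members (not RELB, NFKBIE, IER3 and IL17C). The kappaB consensus, searched on both strands with overlapping matches allowed, occurred in 23 of the 36 members (63.9%), against 3619 of 27305 genes (13.3%). By window it occurred in 26 of 57 (45.6%), against 3956 of 35116 (11.3%). The members were listed as genes of this pathway, and a match is a description of the letters only. The 4 promoters below are of a subunit and of 3 secreted products whose values are given further on. All 4 hold a match and do not stand for the members without one, such as CCRL2 and SOD2. Each line holds the 110 bases before the start, 5′ to 3′ on the strand of the gene, with the bases of the matches in capitals.
REL: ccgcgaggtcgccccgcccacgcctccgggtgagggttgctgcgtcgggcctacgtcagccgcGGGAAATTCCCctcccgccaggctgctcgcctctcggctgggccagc
CXCL3: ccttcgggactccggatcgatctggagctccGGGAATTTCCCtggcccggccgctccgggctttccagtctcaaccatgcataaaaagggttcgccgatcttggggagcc
CCL20: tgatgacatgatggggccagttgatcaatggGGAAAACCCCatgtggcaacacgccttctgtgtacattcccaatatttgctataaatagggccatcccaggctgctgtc
PTX3: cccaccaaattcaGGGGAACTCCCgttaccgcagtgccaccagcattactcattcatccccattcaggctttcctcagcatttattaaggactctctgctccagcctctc
These lie at chr2:60881464-60881573 (REL, + strand), chr4:74038690-74038799 (CXCL3, - strand), chr2:227813732-227813841 (CCL20, + strand) and chr3:157436740-157436849 (PTX3, + strand). CXCL1, CXCL2, CXCL3 and CXCL5, neutrophil chemokines that stand in 1 cluster on chromosome 4, share the same match, GGGAATTTCC, with its first base at -79, -78, -79 and -91 from the start.

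The mean log2 CPM over the 40 members was 5.52, 5.02 and 5.71 in soft-to-soft 1, 2 and 3, and 5.44, 5.67 and 5.89 in stiff-to-soft. The LPA-to-soft libraries had 5.53, 5.52 and 5.71, and those of LPA-to-FAKi had 5.01, 5.35 and 5.64. The ranges of the 4 conditions overlapped, and soft-to-soft 2 and LPA-to-FAKi 1 were the lowest libraries. Within replicate number, LPA-to-FAKi lay below LPA-to-soft by a difference of -0.52, -0.17 and -0.08, the same sign in 3 of 3 pairs but not the same size. Stiff-to-soft minus soft-to-soft was -0.08, 0.64 and 0.18, and LPA-to-soft minus soft-to-soft was 0.01, 0.50 and 0.01. Most of both mean differences came from the pair with number 2: without it they were 0.05 and 0.01, against 0.25 and 0.17 with it. The mean weighs low-count members like the others, and CXCL5 differed by -4.01 in LPA-to-FAKi 2 versus LPA-to-soft 2. The median log2 CPM over members was 6.04, 6.19 and 6.25 in LPA-to-soft and 5.94, 6.17 and 6.17 in LPA-to-FAKi. It was 6.14, 5.90 and 6.48 in soft-to-soft and 6.10, 6.28 and 6.35 in stiff-to-soft, higher in stiff-to-soft in number 2 only.

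**Figure D1:**
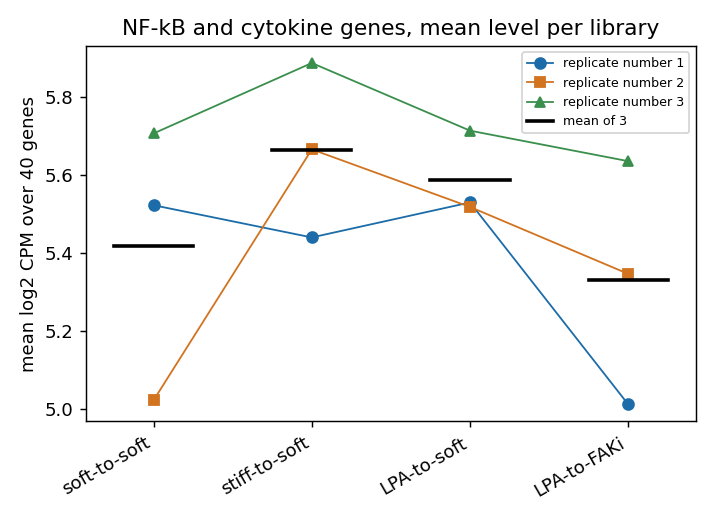
Mean log2 CPM over the 40 genes (vertical axis) in each library of the 4 conditions (horizontal axis), with libraries of the same replicate number joined and black bars at the mean of 3. The 4 libraries numbered 3 sit highest within their conditions, from 5.64 to 5.89, and soft-to-soft 2 and LPA-to-FAKi 1 sit lowest, at 5.02 and 5.01.

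Replicate number took a larger sum of squares than condition in 29 of 40 members (72.5%), near the 73.2% of all genes. In edgeR's quasi-likelihood test with condition in the model, 31 of 40 members differed between replicate numbers at a Benjamini-Hochberg adjusted p under 0.05, where 52.3% of all 15437 genes did. DESeq2 gave 32 members (56.4% of all genes) and voom 31 (53.1%). The 9 others were RELA, TNIP1, BIRC2, BIRC3, IRAK2, IL17C, LTB, TNFAIP2 and TNFRSF9. CXCL1, CXCL2, IL1A, IL1B and IL6, all secreted, had their 4 libraries numbered 3 above the 8 others, which is 5 of 40 members (12.5% of them) against 5.29% of all genes. For CXCL2 the levels were 71.3 to 92.1 CPM in the libraries numbered 3 and 11.4 to 41.3 in the rest. TRAF1, an adaptor of tumour necrosis factor receptors, lay the other way, at 4.58 to 5.44 CPM in number 3 and 8.41 to 11.5 elsewhere. NFKB2 and TRAF1 made up the 2 members below in number 3 (background 5.22%). NFKB2 and TRAF2 stood above in number 2 (3.25%), and NFKBIE, IL32 and PTX3 below in number 1 (8.81%). The median member had 54.5% of its sum of squares by replicate number and 26.5% by condition, against 50.5% and 19.3% over all genes. Condition took most in CCRL2 (68.8%), IL17C (60.3%), TNIP1 (53.7%) and IER3 (52.2%). The labels do not say what a replicate number stands for. Mitochondrial share also moved with it, at 4.31% to 5.05% in number 2 and 5.47% to 8.22% in the others, and its part in these values was not tested.

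**Figure D2:**
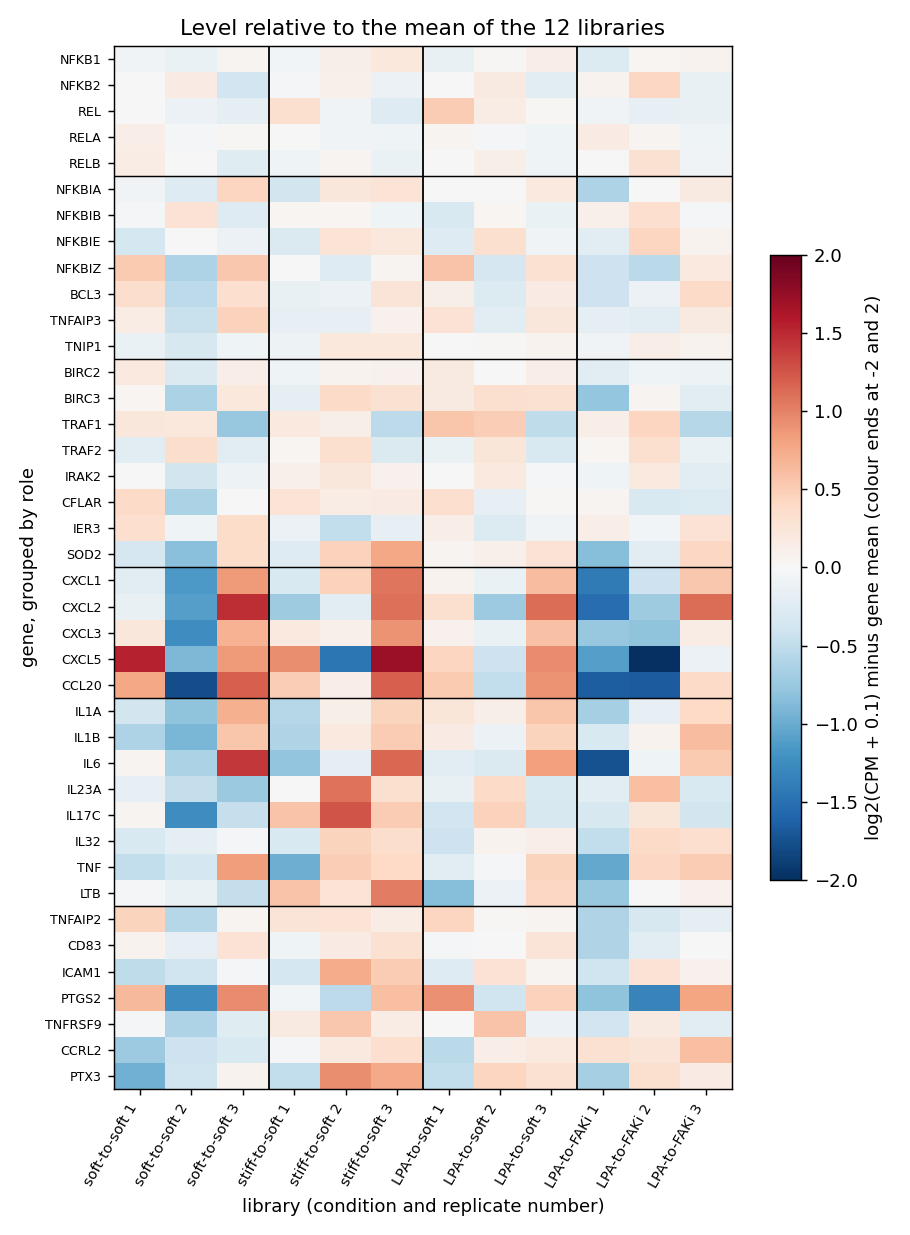
Level of each member (rows, grouped by role) in each library (columns, grouped by condition), as log2(CPM + 0.1) minus the mean of the gene over 12 libraries, with colours ending at -2 and 2. The chemokine rows are blue (low) in soft-to-soft 2 and LPA-to-FAKi 1 and red (high) in soft-to-soft 3, stiff-to-soft 3 and LPA-to-soft 3.

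No member was called between conditions when replicate number was left out of the model. Without replicate number as a further term of the model (the block), edgeR, DESeq2 and limma voom each called 0 of 40 members in each of 5 pairs of conditions, in learned versus not learned and in the test of any condition. Over all genes edgeR and voom without the block called 0% in each. DESeq2 called 0.0259% for stiff-to-soft versus soft-to-soft, 0.013% for LPA-to-soft versus soft-to-soft, 0.0324% for LPA-to-FAKi versus LPA-to-soft, 0.0194% for LPA-to-FAKi versus soft-to-soft, 0.0583% for any condition and 0% in the others. At an unadjusted p under 0.05, edgeR without the block had 8 members for stiff-to-soft versus soft-to-soft (1.94% of all genes), 0 for LPA-to-soft versus soft-to-soft (1.37%) and 3 for LPA-to-FAKi versus LPA-to-soft (5.43%). It had 1 for LPA-to-FAKi versus soft-to-soft (3.55%), 1 for stiff-to-soft versus LPA-to-soft (1.39%), 6 between classes (2.89%) and 2 for any condition (2.25%). Libraries of the same number deviated together, and with the block 3 members were called in edgeR, each in 1 comparison: IER3, PTX3 and CCRL2. Each of these calls was lost in some fits that left out 1 library.

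After conditioning on the stiff gel, IER3 fell and PTX3 rose versus soft-to-soft in the fit with the block, 2 of 40 members where 0.583% of all genes were called (90 of 15437). IER3, an early response gene that acts on cell survival and is induced by NF-kB, was at 567, 425 and 581 CPM in soft-to-soft and 413, 320 and 402 in stiff-to-soft. Every stiff-to-soft library lay below every soft-to-soft library. LPA-to-soft had 494, 372 and 427 CPM and LPA-to-FAKi 494, 431 and 550. The change from soft-to-soft to stiff-to-soft was a fall by 0.46 ± 0.072 (log2, SE; adjusted p = 0.0223 with the block, 1 without it), and the pairs differed by -0.45, -0.41 and -0.53. The call was kept in 8 of 12 fits with the block that left out 1 library (adjusted p 0.00793 to 0.144) and was lost without soft-to-soft 1, soft-to-soft 3, stiff-to-soft 2 or stiff-to-soft 3. With soft-to-soft 3 as the only soft-to-soft library the difference was -0.54 (adjusted p = 0.277). In the same comparison and fit, 4 of 10 squamous epithelium markers were called lower (KRT14, KRT17, PERP and DSG3), and their part in the changes of IER3 and PTX3 was not tested. IER3 shares exon bases with an antisense gene, IER3-AS1.

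PTX3, a secreted pattern recognition protein of the pentraxin family, was at 3.55, 5.26 and 7.35 CPM in soft-to-soft and 4.91, 13.4 and 11.8 in stiff-to-soft. The groups overlapped, because stiff-to-soft 1 lay below soft-to-soft 2 and 3, while stiff-to-soft was higher in 3 of 3 pairs (0.47, 1.35 and 0.68). PTX3 had 4.95, 9.47 and 8.62 CPM in LPA-to-soft and 4.35, 8.77 and 7.86 in LPA-to-FAKi. The rise was 0.83 ± 0.158 (adjusted p = 0.0474 in edgeR with the block, 1 without). It was called in 2 of 12 fits with the block that left out 1 library, those without stiff-to-soft 1 and without LPA-to-FAKi 1 (range 0.0339 to 0.249). With soft-to-soft 3 alone in its group the difference was 0.60 (adjusted p = 0.725). Exons of PTX3 overlap those of VEPH1 on the other strand.

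**Figure D3:**
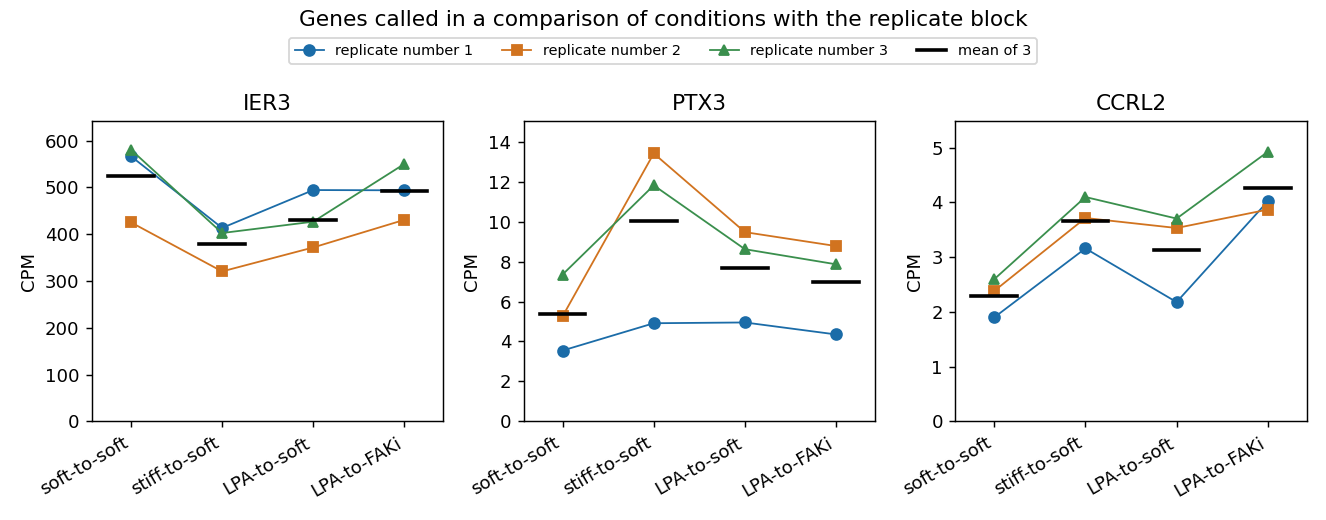
Level in CPM (vertical axis, from 0) of IER3, PTX3 and CCRL2 in each library of the 4 conditions, with libraries of the same replicate number joined and black bars at the mean of 3. IER3 drops along each line from soft-to-soft to stiff-to-soft, PTX3 climbs along each, and CCRL2 is at 1.90 to 2.60 in soft-to-soft and 3.87 to 4.93 in LPA-to-FAKi.

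CCRL2, an atypical receptor that binds the chemoattractant chemerin without signalling, rose in LPA-to-FAKi versus soft-to-soft, the only member called there with the block (0.564% of all genes were called, 87 of 15437). Its levels were 1.90, 2.38 and 2.60 CPM in soft-to-soft, 3.16, 3.72 and 4.10 in stiff-to-soft, 2.18, 3.53 and 3.71 in LPA-to-soft, and 4.02, 3.87 and 4.93 in LPA-to-FAKi. All 3 LPA-to-FAKi libraries and all 3 stiff-to-soft libraries stood above the 3 soft-to-soft libraries. The rise was 0.91 ± 0.161 (adjusted p = 0.039 in edgeR with the block, 0.999 without), with pair differences of 1.07, 0.69 and 0.92. Stiff-to-soft minus soft-to-soft was 0.68 ± 0.161 and was not called (adjusted p = 0.106). The call in LPA-to-FAKi was kept in 3 of 12 fits that left out 1 library, those without soft-to-soft 2, stiff-to-soft 1 or LPA-to-soft 1 (adjusted p 0.037 to 0.161). With soft-to-soft 3 alone in its group the difference was 0.92, as large as before (adjusted p = 0.431).

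In the other comparisons edgeR with the block called 0 members. For LPA-to-soft versus soft-to-soft and for LPA-to-FAKi versus LPA-to-soft it called 0% of all genes, for stiff-to-soft versus LPA-to-soft and for learned against not learned 0.00648%, and for any condition 0.214%. Without soft-to-soft 2, LPA-to-FAKi versus LPA-to-soft had 3 members called with the block (4.05% of all genes in that fit), LPA-to-FAKi versus soft-to-soft 4 (1.94%) and any condition 4 (1.72%). At an unadjusted p under 0.05 with the block, members numbered 12 in stiff-to-soft versus soft-to-soft (11 higher), where 10.2% of all genes passed. They numbered 9 in LPA-to-soft versus soft-to-soft (8 higher, 7.97% of all genes), 13 in LPA-to-FAKi versus LPA-to-soft (10 lower, 22.3%) and 9 in LPA-to-FAKi versus soft-to-soft (5 higher, 16.6%). The remaining counts were 5 in stiff-to-soft versus LPA-to-soft (9.42%), 12 between classes (11 higher in learned, 9.94%) and 14 for any condition (18.2%). DESeq2 with the block called 5 members for stiff-to-soft versus soft-to-soft (IER3, IL23A, ICAM1, CCRL2 and PTX3; 2.87% of all genes) and 4 for LPA-to-FAKi versus LPA-to-soft (REL, CXCL3, CXCL5 and CD83), which is 10% of the members where 7.97% of all genes were called. It called CXCL5 and CCRL2 for LPA-to-FAKi versus soft-to-soft (4.56%), IER3 between classes (0.836%), 9 members for any condition (8.4%), and 0 for LPA-to-soft versus soft-to-soft (0.466%) and stiff-to-soft versus LPA-to-soft (0.428%). Limma voom with the block called IER3 for stiff-to-soft (0.771% of all genes) and CCRL2 for LPA-to-FAKi (1.14%), both versus soft-to-soft, and IER3 for any condition (0.499%). Voom called 0 members in the 4 other comparisons, where 0%, 0.24%, 0.00648% and 0.00648% of all genes were called.

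The comparisons that share soft-to-soft or LPA-to-soft libraries are given side by side by the sign of their pairs. Stiff-to-soft exceeded soft-to-soft in 3 of 3 pairs for 12 members (14.6% of all genes did) and lay below it for 2 (15.7%). For LPA-to-soft versus soft-to-soft there were 10 above (15.8%) and 2 below (18.3%), and the 2 below were RELA and IER3 in both comparisons. LPA-to-FAKi lay below LPA-to-soft in 3 of 3 pairs for 17 members, 42.5% of them, where 22.2% of all genes did, and above it for 6 (22.9%). A sign was counted whatever the size of the difference, for members and for all genes alike. For LPA-to-FAKi versus soft-to-soft there were 8 above (17.4%) and 3 below (17.7%), and for stiff-to-soft versus LPA-to-soft 10 above (18.1%) and 4 below (16.8%). The median member differed by -0.16 in LPA-to-FAKi versus LPA-to-soft with the block, against -0.004 over all genes.

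**Figure D4:**
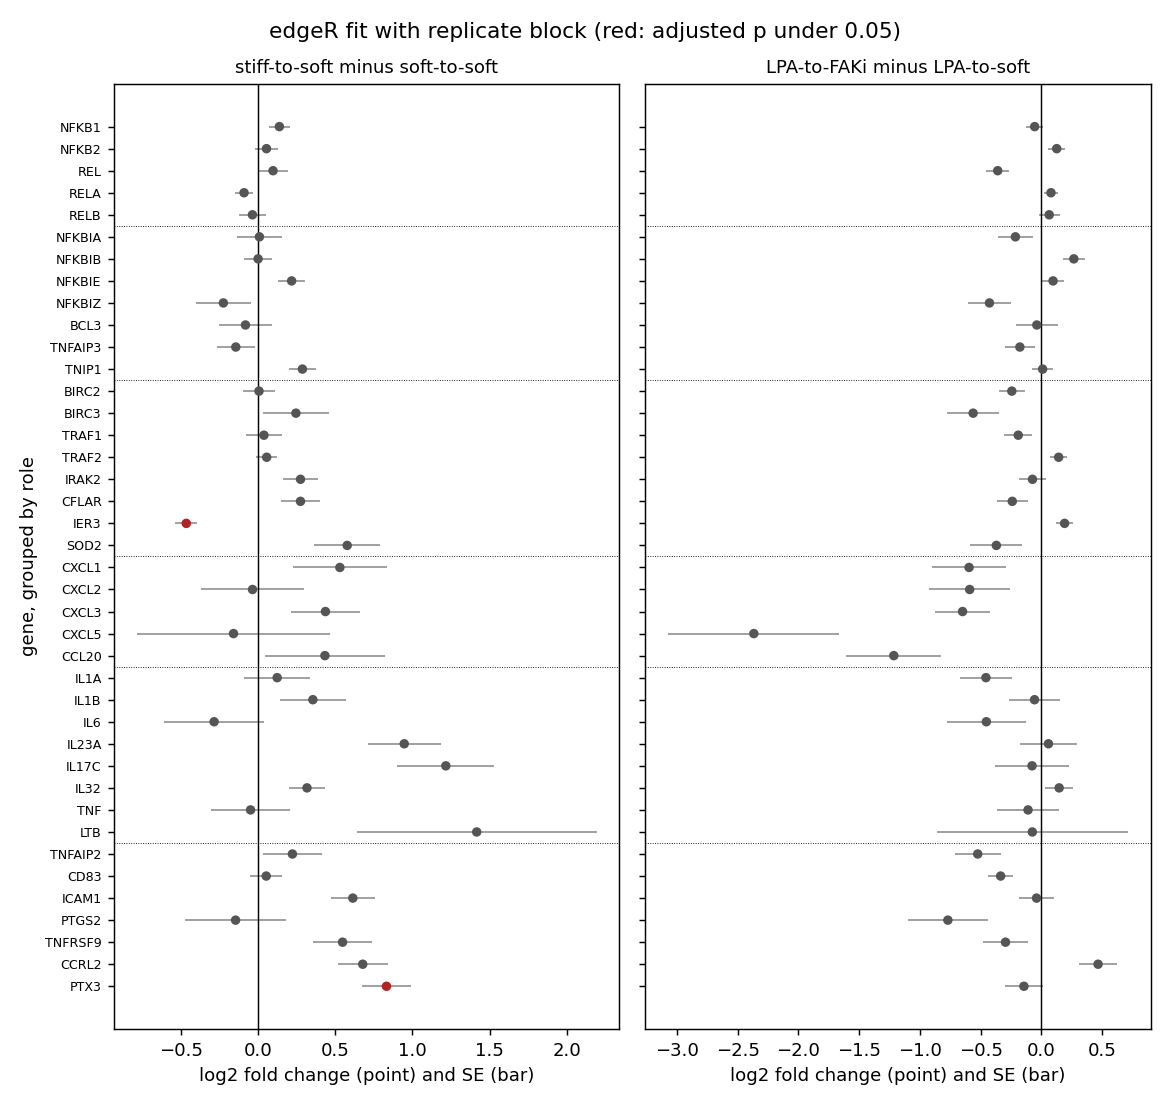
Log2 fold change (point) with its SE (bar) of each member in edgeR with the replicate block, for stiff-to-soft minus soft-to-soft (left) and LPA-to-FAKi minus LPA-to-soft (right), with rows grouped by role and adjusted p under 0.05 in red. IER3 and PTX3 are the red points on the left, none is red on the right, and all 5 chemokines lie left of 0 in the right panel.

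Among the subunits, RELA, the main activating subunit, had the narrowest spread, from 201 to 241 CPM over 12 libraries. NFKB1, the p105 precursor of p50, ran from 55.5 to 77.5 CPM, and RELB, the partner of p52, from 29.3 to 42.4. REL, or c-Rel, was at 20.7, 18.8 and 18.1 CPM in soft-to-soft, 25.8, 19.5 and 17.1 in stiff-to-soft, 29.2, 22.7 and 20.9 in LPA-to-soft, and 19.5, 18.2 and 18.5 in LPA-to-FAKi. Each LPA-to-soft library stood above all LPA-to-FAKi libraries. The difference of LPA-to-FAKi from LPA-to-soft was -0.36 ± 0.097 with the block (adjusted p = 0.0922; pairs -0.58, -0.31 and -0.18) and that of LPA-to-soft from soft-to-soft 0.32 ± 0.097 (adjusted p = 0.476; pairs 0.49, 0.27 and 0.21). NFKB2, the p100 precursor of p52, was at 113, 128 and 87.7 CPM in soft-to-soft, 111, 122 and 105 in stiff-to-soft, 113, 129 and 98.8 in LPA-to-soft, and 120, 152 and 103 in LPA-to-FAKi. Its order by replicate number, 2 above 1 above 3, recurred in each condition, and LPA-to-FAKi minus soft-to-soft was 0.19 ± 0.072 (adjusted p = 0.231 with the block).

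The inhibitors did not share a direction. NFKBIE, the IkB-epsilon protein, was at 17.7, 22.5 and 20.7 CPM in soft-to-soft, 18.3, 27.1 and 26.0 in stiff-to-soft, 18.8, 28.0 and 21.4 in LPA-to-soft, and 19.2, 30.4 and 23.7 in LPA-to-FAKi. The 4 libraries numbered 1 were its lowest, and it was higher than soft-to-soft in all pairs of the other conditions, by 0.25 ± 0.088 in LPA-to-FAKi (adjusted p = 0.201 with the block). TNIP1, which binds the ubiquitin-editing enzyme TNFAIP3 and restrains the pathway, had 381, 335 and 392 CPM in soft-to-soft, 388, 486 and 484 in stiff-to-soft, 420, 423 and 438 in LPA-to-soft, and 398, 456 and 439 in LPA-to-FAKi. Each of the 9 libraries outside soft-to-soft except stiff-to-soft 1 stood above all soft-to-soft libraries. The difference of stiff-to-soft from soft-to-soft was 0.29 ± 0.086 with the block (adjusted p = 0.201). NFKBIA, the classical IkB-alpha, ran from 213 to 442 CPM and TNFAIP3, or A20, from 345 to 644. NFKBIZ, an atypical nuclear IkB, ran from 138 to 315, and NFKBIB, or IkB-beta, from 49.6 to 77.5. BCL3, a nuclear IkB that can activate with p50 or p52, ran from 53.3 to 99.98 CPM. NFKBIA, NFKBIZ and TNFAIP3 were lower and NFKBIB and NFKBIE higher in 3 of 3 pairs of LPA-to-FAKi versus LPA-to-soft. For NFKBIA (-0.61, -0.02 and -0.01) and TNFAIP3 (-0.48, -0.01 and -0.04) only the pair with number 1 was clearly lower. The pairs were -0.99, -0.21 and -0.11 for NFKBIZ, 0.41, 0.30 and 0.10 for NFKBIB, and 0.03, 0.12 and 0.15 for NFKBIE.

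In the group of adaptors and survival genes, SOD2, the mitochondrial superoxide dismutase, was at 278, 196 and 453 CPM in soft-to-soft, 293, 485 and 601 in stiff-to-soft, 363, 378 and 429 in LPA-to-soft, and 194, 303 and 468 in LPA-to-FAKi. Its classes overlapped, and learned minus not learned was 0.48 ± 0.147 with the block (adjusted p = 0.341). BIRC2 and BIRC3, ubiquitin ligases at the receptor complex, ran from 72.7 to 102 and from 108 to 241 CPM, and CFLAR, an inhibitor of caspase-8, from 58.7 to 119. All of BIRC2, BIRC3, TRAF1 and CFLAR lay lower in 3 of 3 pairs of LPA-to-FAKi versus LPA-to-soft, and TRAF2 higher. BIRC3 had the largest of these differences, -0.56 ± 0.212 with the block (adjusted p = 0.158). TRAF2, the adaptor that recruits these ligases, ran from 53.8 to 84.6 CPM, and IRAK2, a kinase of interleukin 1 receptor signalling, from 63.4 to 95.5.

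The chemokines varied widely between the libraries of a condition, and each had its lowest value in LPA-to-FAKi or in soft-to-soft 2. CCL20, which attracts lymphocytes and dendritic cells through CCR6, was at 240, 41.3 and 325 CPM in soft-to-soft, 199, 154 and 323 in stiff-to-soft, 203, 100.3 and 264 in LPA-to-soft, and 44.8, 44.7 and 185 in LPA-to-FAKi. LPA-to-FAKi 1 and 2 were near soft-to-soft 2 and below all other libraries, while LPA-to-FAKi 3 stood among the LPA-to-soft values. LPA-to-FAKi minus LPA-to-soft was -1.21 ± 0.391 with the block (adjusted p = 0.117), with pairs of -2.18, -1.17 and -0.51. CXCL3, a ligand of CXCR2, had 13.9, 4.96 and 19.2 CPM in soft-to-soft, 13.6, 12.7 and 22.2 in stiff-to-soft, 12.5, 10.8 and 17.9 in LPA-to-soft, and 7.0, 6.72 and 13.2 in LPA-to-FAKi. It was lower in LPA-to-FAKi than in LPA-to-soft in 3 of 3 pairs, and one LPA-to-FAKi library lay within the LPA-to-soft range. That difference was -0.65 ± 0.226 with the block (adjusted p = 0.136), and learned minus not learned was 0.54 (adjusted p = 0.38).

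CXCL1, another CXCR2 ligand, had pair differences of -1.50, -0.27 and -0.08 in LPA-to-FAKi versus LPA-to-soft, and CXCL2 had -1.85, 0.01 and 0.01. The low level in LPA-to-FAKi 1 thus set most of both differences, which in the blocked edgeR fit were -0.59 ± 0.305 for CXCL1 (adjusted p = 0.278) and -0.59 ± 0.334 for CXCL2 (adjusted p = 0.323). CXCL5 was near the detection limit, with 0 to 173 counts per library, and was at 0 in LPA-to-FAKi 2. CXCL1, CXCL2 and CXCL3 are close copies, and how reads that match several of them were counted is not given in the sources used here.

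**Figure D5:**
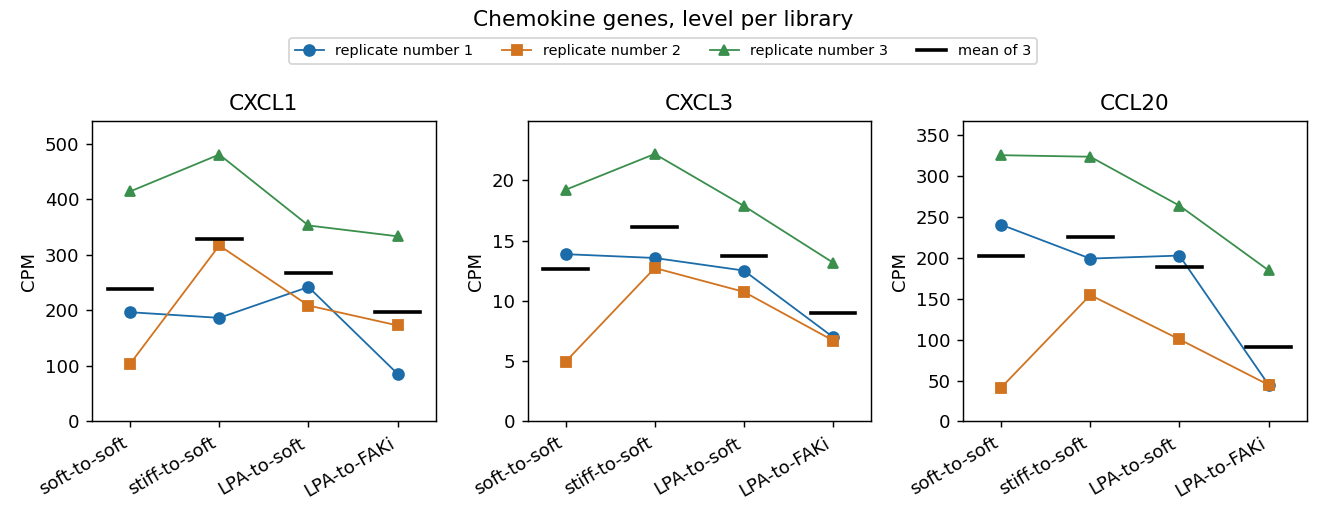
Level in CPM (vertical axis, from 0) of CXCL1, CXCL3 and CCL20 in each library of the 4 conditions, with libraries of the same replicate number joined and black bars at the mean of 3. All 3 lines of each gene fall from LPA-to-soft to LPA-to-FAKi, but for CXCL1 the lines numbered 2 and 3 fall by no more than 0.27 on the log2 scale.

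Among the cytokines, IL17C and IL23A had their highest mean levels in stiff-to-soft, with no call in edgeR. IL17C, a cytokine made by epithelial cells, was at 11.6, 4.66 and 8.10 CPM in soft-to-soft, 16.7, 27.0 and 16.0 in stiff-to-soft, 8.58, 15.4 and 8.90 in LPA-to-soft, and 8.96, 13.3 and 8.65 in LPA-to-FAKi. The 3 stiff-to-soft libraries stood above the 9 others. The difference from soft-to-soft was 1.22 ± 0.315 with the block (adjusted p = 0.137; pairs 0.53, 2.53 and 0.98), and from LPA-to-soft 0.86 ± 0.306 (adjusted p = 0.497; pairs 0.96, 0.81 and 0.85). IL23A, the p19 chain of interleukin 23, was at 2.37, 1.89 and 1.56 CPM in soft-to-soft, 2.67, 5.81 and 3.35 in stiff-to-soft, 2.40, 3.51 and 2.14 in LPA-to-soft, and 2.28, 4.10 and 2.14 in LPA-to-FAKi. Stiff-to-soft lay above soft-to-soft in every library and overlapped the conditions with LPA, and the difference from soft-to-soft was 0.95 ± 0.237 with the block (adjusted p = 0.125). DESeq2 with the block called IL23A there but not IL17C.

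IL1A and IL1B, the 2 forms of interleukin 1, ran from 84.7 to 241 and from 97.7 to 285 CPM, with their highest levels in the libraries numbered 3. IL6 ran from 2.27 to 20.8 CPM and TNF from 24.9 to 90.6. Neither differed between stiff-to-soft and soft-to-soft with the same sign in 3 pairs (IL6 -0.86, 0.44 and -0.26, TNF -0.49, 0.84 and -0.44). IL32, a cytokine induced by inflammatory signals, ran from 68.2 to 130.1 CPM and was lowest in number 1. LTB, lymphotoxin beta, had 2 to 34 counts per library, too few to compare conditions at this depth.

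Among the surface and other genes, ICAM1, the adhesion molecule that leukocyte integrins bind, ran from 88.2 to 209 CPM. It was higher in stiff-to-soft than in soft-to-soft in 3 of 3 pairs (0.15, 1.14 and 0.56) and not called in edgeR with the block (0.61 ± 0.144, adjusted p = 0.103). TNFRSF9, the costimulatory receptor 4-1BB, ran from 11.1 to 25.5 CPM, with stiff-to-soft pairs of 0.23, 1.17 and 0.38. TNFAIP2, which forms membrane protrusions, ran from 258 to 534 CPM and CD83, a marker of activated dendritic cells, from 17.0 to 31.9. Both were lower in LPA-to-FAKi than in LPA-to-soft in 3 of 3 pairs, with differences in the blocked edgeR fit of -0.52 ± 0.191 for TNFAIP2 (adjusted p = 0.148) and -0.33 ± 0.105 for CD83 (adjusted p = 0.115). PTGS2, the inducible cyclooxygenase, ran from 4.04 to 20.1 CPM, and its pairs there were -1.74, -0.96 and 0.33.

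Other genes of the pathway were read from 3 lists. None of 19 receptor genes, 31 signalling genes and 36 targets was called between conditions in edgeR without the block. With the block, 1 receptor and 1 target were called in stiff-to-soft versus soft-to-soft (0.583% of all genes) and 1 target in LPA-to-FAKi versus soft-to-soft (0.564%), all higher, and no signalling gene was called. TNFRSF21, a death receptor, was at 467 ± 164 CPM (SD, n = 3) in stiff-to-soft and 309 ± 92.2 in soft-to-soft, a rise of 0.58 ± 0.090 in edgeR (adjusted p = 0.023). CSF2, which encodes the growth factor GM-CSF, was the target called in both comparisons, at 15.9 ± 6.55 CPM in soft-to-soft, 41.6 ± 23.2 in stiff-to-soft and 36.8 ± 19.5 in LPA-to-FAKi. Its rise in edgeR with the block was 1.32 ± 0.126 in stiff-to-soft (adjusted p = 0.00384) and 1.16 ± 0.126 in LPA-to-FAKi (adjusted p = 0.0111, 0.999 without the block). The LPA-to-FAKi call was lost without soft-to-soft 3, where 0 of 15704 genes were called with the block. Values of CSF2 and TNFRSF21 in the other fits that left out libraries were not examined. All of these calls also rest on soft-to-soft 1 and 2, whose low counts were not mostly even, unlike those of the other libraries. Among the libraries numbered 3, CSF2 was at 12.8 CPM in soft-to-soft, 30.3 in stiff-to-soft and 21.4 in LPA-to-FAKi. TNFRSF21 was at 356 CPM in soft-to-soft 3 and 529 in stiff-to-soft 3. Within each replicate number CSF2 also stood higher in LPA-to-soft, at 17.6, 36.0 and 16.4 CPM, than in soft-to-soft, at 11.5, 23.5 and 12.8 CPM. These 2 groups overlapped, and CSF2 was not called there in edgeR with the block, which called 0% of all genes. In LPA-to-FAKi versus LPA-to-soft the median target differed by -0.30, with 10 of 36 above 0, where 49.2% of all genes were above 0 and their median was -0.004, while the median receptor and the median signalling gene differed by 0.02 and -0.01. Between replicate numbers 11 of 19 receptors, 17 of 31 signalling genes and 25 of 36 targets were called, where 52.3% of all genes were.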

How the data were processed

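The authors deposited whole-number read counts per gene symbol, used here, and a table of normalized log2 values, not used. Per the submitters' processing notes, the tools were STAR, HTSeq, cutadapt, FastQC and DESeq2 and the build was hg19. Tool settings, gene models and the use of strand in counting are not given in any source used for this work. The library kit was stranded, per the labels. In GENCODE 29, 12 of 40 members share exon bases with another gene, and their reads may not be separable.

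The test of each gene was the one of edgeR 4.0.16 under R 4.3.3 (quasi-likelihood F test, TMM scaling, edgeR's low-count filter by the 4 conditions, 12 libraries together), with Benjamini-Hochberg adjustment over 15437 genes and a threshold of 0.05. DESeq2 1.42.0 and limma 3.58.1 (voom) were alternatives, as were median-ratio scaling, no filter and leaving out each library. CPM used TMM scaling, log2 CPM a prior count of 2, and fold changes are log2 ± SE. The design had no replicate block. After removal of condition means, libraries with the same number in their labels correlated with r from 0.312 to 0.659 (18 pairs) and others from -0.517 to 0.037 (36 pairs). All same-number pairs exceeded 0.1, so the numbers were taken to pair the samples. No library pair was identical (0).

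The members and lists were chosen with earlier results of these data known. Values in every library are given for members called in a comparison of conditions with or without the block and for the 2 members of each role with the smallest unadjusted p for any condition with the block. Members so chosen tend to separate conditions by that choice, and the share of all genes with a like separation was not counted. Coordinates are of GRCh38.p14 and were not joined to the counts, which were matched by symbol.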

Additional observations from a re-analysis of the deposited data

Results flagged for a closer look

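The log2 CPM of the 12 named members and their module mean were examined for a library far from the rest, within the 6 libraries of each class and the 4 of each replicate number. Of these 65 groups 3 had one. Chance gives about 1 in 20 such groups. CXCL3 was at a log2 CPM of 2.81 in LPA-to-FAKi 1, the lowest of the libraries numbered 1, where the next was 3.65. CCL20 was at 5.49 in the same library, and the next was 7.64. IL17C was at 4.01 in stiff-to-soft 3, the highest of the libraries numbered 3, where the next was 3.16. The 4 libraries of a number are 4 conditions, so these gaps compare conditions as well as libraries.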

How the results depend on the processing

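Counts of members called between conditions depended on the replicate block. Without the block they were 0 of 40 in edgeR, DESeq2, voom, median-ratio scaling, no low-count filter and every fit that left out 1 library. With the block, stiff-to-soft versus soft-to-soft had 2 in edgeR, 5 in DESeq2, 1 in voom, and 2 each with median-ratio scaling (0.654% of all genes), no filter (0.81%) and halved counts of the 10 libraries with even low counts (0.682%). LPA-to-FAKi versus soft-to-soft had 1, 2, 1, and 1 each (0.589%, 1.06% and 0.675%). LPA-to-FAKi versus LPA-to-soft had 4 in DESeq2 and learned against not learned 1. Any condition had 9 in DESeq2, 1 in voom, 1 without the filter (1.07% of all genes) and 2 without soft-to-soft 1 and 2 (0.374%). Fits with the block that left out 1 library gave 0 to 3 for stiff-to-soft versus soft-to-soft (0.0445% to 1.45% of all genes), 0 to 3 for LPA-to-FAKi versus LPA-to-soft (0% to 4.05%), 0 to 4 for LPA-to-FAKi versus soft-to-soft (0% to 1.94%), 0 to 4 for any condition (0.00636% to 1.72%) and 0 in the 3 other comparisons. The highest came without stiff-to-soft 1 in the first of these and without soft-to-soft 2 in the next 3. The cause was not tested. Between replicate numbers, 26 to 33 members were called with 1 library left out (41.8% to 50.3% of all genes), against 31. In the edgeR fits of all libraries the block changed no call of a member other than IER3, PTX3 and CCRL2. Values of named members under the alternatives were set against the edgeR fit without the block, where no member was called. Of them 407 kept their side of the threshold and direction, 33 passed it where they had not, and 0 reversed direction. A lost call could not appear in these counts, so they do not measure how stable the calls with the block were. Voom, scaling, filter and leaving out soft-to-soft 1 and 2, each with the block in comparisons of conditions, were added after seeing the data. Halving was also added then, with and without the block. The low counts of LTB and CXCL5 limit what can be said of them.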
